A study of Mus musculus with 2 samples.

Results

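The sperm lysozyme-like proteins described here are encoded by 4 genes, Lyzl1, Lyzl4, Lyzl6 and Spaca3. Their rows were found by symbol in the deposited gene list, where each symbol matched 1 of 51868 rows, and were followed across all 2552 cells of both mice. C-type lysozymes are small secreted proteins best known as enzymes that cut the peptidoglycan of bacterial cell walls. Several members of the family are made in the testis and are known from the acrosome, the vesicle over the sperm nucleus whose contents are released around fertilisation. The products of Spaca3 and Lyzl4 are known as members without bacteriolytic activity, and that of Spaca3 has been tied to the binding of sperm to the egg.

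Both animals were untreated wild-type littermates of the strain C57Bl/6J Crl at 8 weeks of age, and there was no second genotype or treatment. Part of each testis was digested with enzymes and passed through a strainer, which limits the number of somatic cells, and 1 droplet library of 3' transcript ends was made per mouse. The comparisons below are therefore between cell clusters, with the 2 mice as replicates, and every cluster holds cells of the same 2 animals. Unique molecular identifiers (UMIs) were counted per gene and cell, and CPM stands for the UMIs of a gene per 1000000 UMIs of the same cluster and mouse.

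Mouse 1 contributed 1237 cells and 27450497 UMIs, mouse 2 contributed 1315 cells and 30302332 UMIs, and the median cell held 17871 and 19184 UMIs. Clusters were built without the 4 members and the lists tested below, and were numbered by the median place of their cells along a pseudotime. The cells of clusters 5 and 6 overlapped in this order, with median places of 2044.5 and 2245. Cluster 1 (163 cells) was early spermatocyte-like, cluster 2 (526 cells) pachytene or later spermatocyte-like, clusters 3 (691 cells) and 4 (448 cells) round spermatid-like, and clusters 5 (200 cells) and 6 (505 cells) elongating or condensing spermatid-like. The name of cluster 3 rests on a narrow choice, since its score was 0.446 for round spermatids and 0.313 for pachytene or later spermatocytes, with 5 of 12 markers above the limit. Another 19 cells formed Sertoli-like (7), spermatogonium-like (7) and Leydig-like (5) clusters. Doublets were called in 25 cells and kept.

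On GRCm38, Lyzl4 occupies chr9:121577843-121642096 on the reverse strand, with up to 6 exons, and is the longest of the members with 64254 bases. Lyzl6 (chr11:103631070-103638890, reverse strand, up to 5 exons) and Spaca3 (chr11:80858365-80867814, forward strand, up to 6 exons) are on the same chromosome, but not next to each other. These 3 and Lyzl1 are annotated as protein coding. The antisense gene Lyzl4os (chr9:121586997-121614255, forward strand) lies wholly within Lyzl4 over 27259 bases. The antisense gene 4930507D10Rik (chr11:80850381-80858300, reverse strand) was chosen for mention after its values had been seen. It runs away from Spaca3 on the opposite strand, with 64 bases between its start and that of Spaca3.

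Since all members rose between the same clusters, as given below, the 250 bases before their RefSeq start sites (GRCm38.p6) are shown, 5′ to 3′ in the direction of the gene. RefSeq promoters were matched for 3 of the 4 members. Capitals mark TGACG on either strand. This is one arm of TGACGTCA, the site of the CREB and CREM family, whose member CREM is known as an activator of genes in round spermatids. The windows are chr11:80858113-80858362 (forward strand) for Spaca3, chr11:103638891-103639140 (reverse strand) for Lyzl6 and chr9:121586962-121587211 (reverse strand) for the innermost of 3 starts of Lyzl4, which lies 36 bases from the start of Lyzl4os.
Spaca3: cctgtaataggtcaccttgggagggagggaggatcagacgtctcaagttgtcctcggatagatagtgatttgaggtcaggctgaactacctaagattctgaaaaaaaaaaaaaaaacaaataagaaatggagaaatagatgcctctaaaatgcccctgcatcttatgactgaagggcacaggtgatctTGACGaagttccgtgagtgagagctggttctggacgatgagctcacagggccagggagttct
Lyzl6: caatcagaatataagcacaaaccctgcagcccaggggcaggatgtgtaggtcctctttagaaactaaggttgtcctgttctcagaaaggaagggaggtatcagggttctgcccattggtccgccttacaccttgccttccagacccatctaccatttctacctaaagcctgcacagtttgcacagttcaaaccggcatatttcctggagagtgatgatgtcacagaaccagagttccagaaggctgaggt
Lyzl4: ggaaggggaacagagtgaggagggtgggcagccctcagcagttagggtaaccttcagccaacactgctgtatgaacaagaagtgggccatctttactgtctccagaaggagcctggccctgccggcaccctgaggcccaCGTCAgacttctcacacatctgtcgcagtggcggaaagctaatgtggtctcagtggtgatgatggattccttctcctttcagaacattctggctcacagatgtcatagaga
TGACG was found 62 bases before the start of Spaca3 used here, and 88 bases before its other start at 80858389. It was found 111 bases before the start of Lyzl4 used here, there on the opposite strand, and not in the window of Lyzl6. The windows of the other 2 starts of Lyzl4, not printed, hold none. It is present in 17.8% of 32851 promoter windows of this length. The full TGACGTCA (1.55% of windows), GTTGCC (10.4%, part of the site of RFX factors) and TATAAA (12.4%, the TATA box) were in none of the 3 windows. A match is a description of letters and no evidence of binding.

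Over all cells, Spaca3 had 16193 UMIs in 1798 cells, Lyzl1 13079 in 1762 cells, Lyzl6 12246 in 1594 cells and Lyzl4 6889 in 1524 cells. These counts are of captured 3' ends, which do not scale with transcript length, but capture can differ between genes. The order of the genes is therefore not an order of transcript numbers. Spermatid-like clusters held nearly all of these UMIs. Cluster 4 alone gave 49.9% and 48.1% of the Lyzl1 UMIs of the mice, while it held 15.6% and 19.99% of their UMIs over all genes.

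Lyzl1 lies on the forward strand of chromosome 18 at positions 4165832 to 4182232 (GRCm38) and has up to 5 exons. It had 25.9 and 15.3 CPM in cluster 1 in mouse 1 and mouse 2, and 10.8 and 10.5 CPM in cluster 2. It reached 260 and 307 CPM in cluster 3, 634 and 605 CPM in cluster 4, 359 and 359 CPM in cluster 5, and 86.1 and 83.4 CPM in cluster 6. Both mice were therefore highest in cluster 4. Lyzl4, the member with the fewest UMIs, had 10.2 and 7.02 CPM in cluster 1, 4.70 and 6.31 CPM in cluster 2, 150 and 198 CPM in cluster 3 and 302 and 328 CPM in cluster 4. In clusters 5 and 6 its levels were 119 and 139 CPM, then 40.5 and 50.5 CPM. Without the called doublets, cluster 1 had 2.96 and 5.85 CPM, so its order against cluster 2 rests on them. Lyzl4 was the only member lower in cluster 5 than in cluster 3 on this scale, in both mice.

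Lyzl6, whose human counterpart is known to be bacteriolytic, had 16.6 and 11.6 CPM in cluster 1, 11.3 and 9.93 CPM in cluster 2, 246 and 294 CPM in cluster 3 and 625 and 590 CPM in cluster 4. Its levels were 343 and 331 CPM in cluster 5 and 24.1 and 28.0 CPM in cluster 6. The values of cluster 6 lay far nearer to the spermatocyte-like clusters than to cluster 5. Spaca3 had 24.0 and 16.9 CPM in cluster 1, 16.5 and 18.4 CPM in cluster 2, 344 and 384 CPM in cluster 3, 721 and 738 CPM in cluster 4, 537 and 547 CPM in cluster 5 and 43.6 and 53.4 CPM in cluster 6. The mice differed by little beside these steps, except that all 4 members were higher in mouse 2 within cluster 3, with 95% Poisson intervals that did not overlap. For Lyzl4 these intervals were 140 to 160 CPM in mouse 1 and 188 to 207 CPM in mouse 2. They cover counting error only, and the difference rests on 1 library per mouse. The share of all rows with such a difference was not computed. In the pseudotime bins described below, Lyzl1 had 218 CPM in mouse 1 and 206 CPM in mouse 2 in bin 8. In bin 9 it had 342 and 325 CPM, and in bin 10 444 and 390 CPM. Lyzl4 had 138 and 140 CPM, 194 and 215 CPM, and 234 and 225 CPM in these bins. Mouse 1 had 73 cells in bin 7 and 51 in bin 10, against 54 and 76 in mouse 2. The part of this in the difference was not tested.

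**Figure D1:**
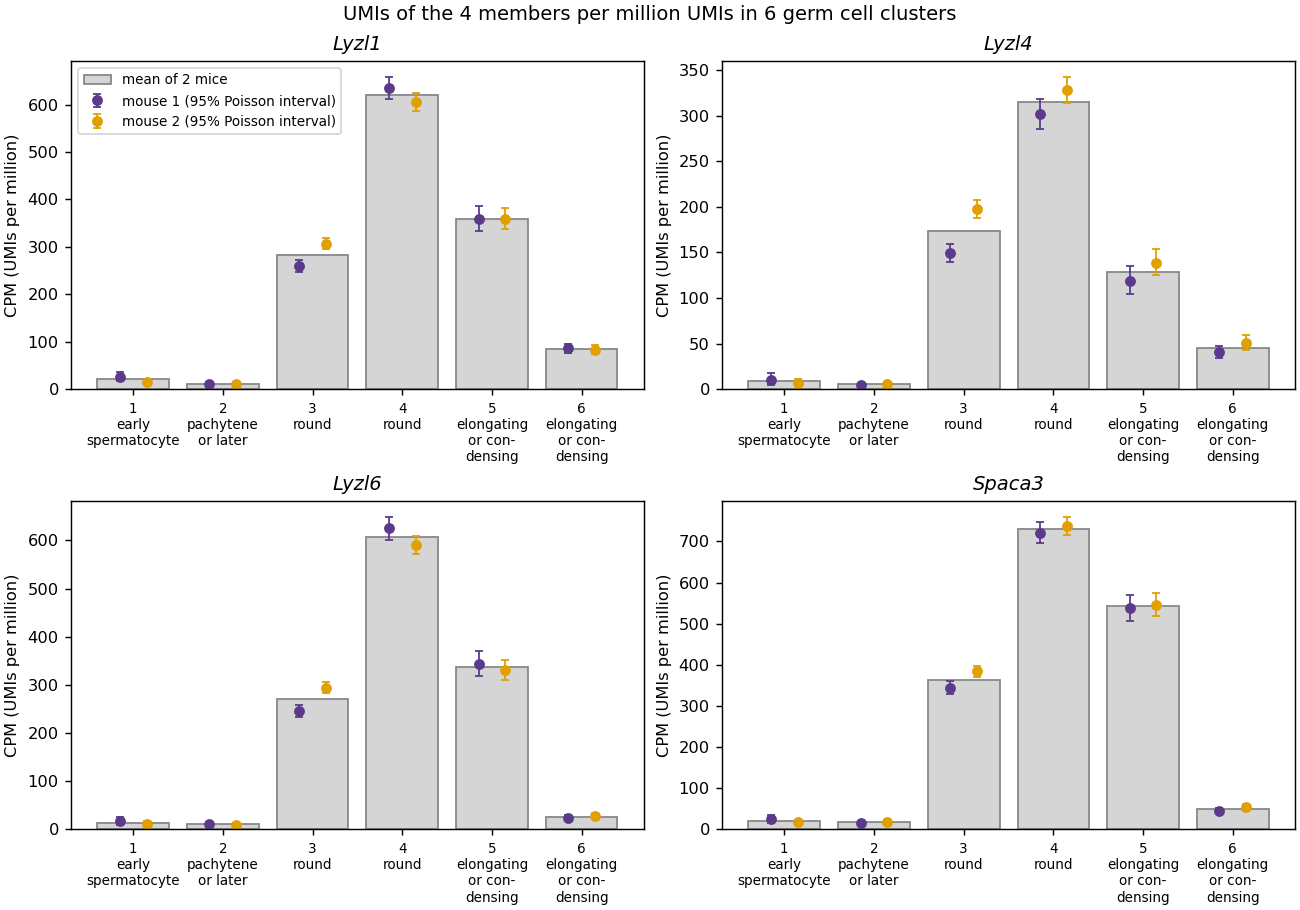
Level of each member in CPM (vertical axis, linear from 0) in the 6 large clusters (horizontal axis), with points for each mouse, 95% Poisson intervals as error bars and grey bars for the mean of the 2 mice. Each member is highest in cluster 4, at 634 and 605 CPM for Lyzl1 and 302 and 328 CPM for Lyzl4, and near the bottom of the axis in clusters 1 and 2.

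The share of cells with a UMI was also highest in cluster 4 for each member, but did not follow CPM at every step. Lyzl6 had a mean of 270 CPM in cluster 3 and 337 CPM in cluster 5, with shares of 92.0% and 82.4%. Spaca3 had 20.5 CPM in cluster 1 and 17.4 CPM in cluster 2, with shares of 31.2% and 42.2%. In cluster 4, all 189 cells of mouse 1 held each member, and in mouse 2 all 259 cells held Lyzl1, Lyzl6 and Spaca3 and 98.5% held Lyzl4. After thinning of every cell to 5000 UMIs, which left no cell of this cluster out, 96.0% ± 0.384 (SD, n = 2) held Lyzl1, 81.0% ± 2.31 Lyzl4, 95.2% ± 1.39 Lyzl6 and 98.7% ± 0.344 Spaca3. In cluster 6, where the median cell had 11702 UMIs against 21898.5 in cluster 4, the shares before thinning were 58.8% ± 0.382 for Lyzl1, 38.4% ± 4.79 for Lyzl4, 29.7% ± 4.57 for Lyzl6 and 41.0% ± 2.96 for Spaca3. Thinned, they were 32.7% ± 2.79, 19.4% ± 4.66, 13.5% ± 0.168 and 19.2% ± 2.40. The fall between clusters 4 and 6 was thus present at equal depth.

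The low levels in spermatocyte-like cells were not separated from background. Of the 12 Sertoli-like and Leydig-like cells, which are not known to make these proteins, 4 (33.3%) held a UMI of Lyzl1 and 3 (25%) one of Lyzl4, although their median was 10535.5 UMIs. The 689 cells of clusters 1 and 2 were deeper, at a median of 20427 UMIs, and 27.9% of them held Lyzl1 and 14.2% Lyzl4. For Lyzl6 the shares were 8.33% (exact 95% interval 0.211 to 38.5) in the somatic cells and 28.0% in the spermatocyte-like cells, and for Spaca3 16.7% (2.09 to 48.4) and 39.3%. All intervals of the few somatic cells contained the share in spermatocyte-like cells, so no expression is read from these. For Lyzl1 and Lyzl4 these intervals were 9.92 to 65.1 and 5.49 to 57.2. All of them also contained the mean share in cluster 6 before thinning, where the median cell had 11702 UMIs. The levels of cluster 6 were therefore not separated from these 12 cells either, whose wide intervals could separate little. After thinning, mean shares in clusters 1, 2 and 6 were 9.25%, 6.10% and 32.7% for Lyzl1 and 1.35%, 3.59% and 19.4% for Lyzl4. They were 8.47%, 8.21% and 13.5% for Lyzl6 and 8.92%, 12.4% and 19.2% for Spaca3. UMIs per cell were 0.436, 0.362 and 1.11 for Lyzl1, but 0.299, 0.361 and 0.343 for Lyzl6. These differences were not tested. Among the 7 spermatogonium-like cells, 2 held a UMI of Lyzl4, Lyzl6 or Spaca3 each, and 0 of 7 held Lyzl1, which allows a share of up to 42.9% (3 counts of the total).

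To ask in which phase of germ cell development the members are higher, UMIs were summed per mouse and cluster and clusters 3 to 6 were compared with clusters 1 and 2. All 4 members were higher in spermatid-like clusters, where 42.2% of the 14118 rows tested were called higher and 42% lower (edgeR quasi-likelihood test, Benjamini-Hochberg adjusted p under 0.05). The other genes formed the clusters, so a high share of calls is built in and a call alone says little. The sizes were larger than for most rows. The log2 fold change was 5.02 ± 0.123 (SE) for Lyzl1, or 32.4-fold, with an adjusted p of 1.06e-19 in edgeR, and 900 of 14118 rows had a larger one. For Lyzl4 it was 5.11 ± 0.153 (34.5-fold, adjusted p 9.46e-19 in edgeR). Lyzl6 followed with 4.80 ± 0.126 (27.9-fold, adjusted p 1.56e-19 in edgeR) and Spaca3 with 4.75 ± 0.119 (26.9-fold, adjusted p 1.06e-19 in edgeR), exceeded by 1156 and 1235 rows. The members' median was 4.91 and that of all rows -0.0044. Since the spermatocyte level was not separated from background, these folds compare spermatid-like cells with that level. Leaving out cluster 3, a choice made after the clusters had been seen, gave values between 4.84 and 5.19.

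The scaling matters in these sums. The normalization factors of the TMM method used here fell from 1.67 in cluster 1 to 0.481 in cluster 6. With library totals in place of TMM the median log2 fold change of all rows was -0.77 in place of -0.0044 between spermatids and spermatocytes, -0.57 in place of -0.060 between clusters 5 and 4 and -0.60 in place of -0.0023 between clusters 6 and 5. The calls over all rows moved from 5956 higher and 5933 lower to 4611 and 7735 between spermatids and spermatocytes, from 3305 and 2962 to 2442 and 5577 between clusters 5 and 4, and from 2325 and 3283 to 852 and 5195 between clusters 6 and 5. With UMIs per cell the last of these became 47 higher and 8954 lower. The splits of the earlier steps moved as well, from 3644 higher and 3458 lower to 2564 and 4370 with DESeq2 between clusters 2 and 1, from 4488 and 4386 to 2943 and 7847 with UMIs per cell between clusters 3 and 2, and from 3650 and 2848 to 3106 and 4626 with library totals between clusters 4 and 3. Levels in CPM and log2 fold changes after TMM can therefore differ in direction, and both are given.

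Between clusters 1 and 2, within the spermatocyte-like cells, 1 member was called lower, beside 24.5% of all rows called lower and 25.8% higher. This was Lyzl1, whose change on the log2 scale was -0.58 ± 0.226 (edgeR, adjusted p 0.0371). The call ended with the mouse as a block (-0.55, adjusted p 0.0501, edgeR) and without the called doublets (-0.21, adjusted p 0.464, edgeR). Each mouse alone gave -0.88 (mouse 1) and -0.38 (mouse 2), without a test. In mouse 1, leaving out doublets lowered Lyzl1 in cluster 1 from 25.9 to 14.8 CPM, and 1 cell there held 13 of its 28 UMIs. Sertoli markers also stood higher in that cluster in mouse 1, with a summed level of 150 CPM (11 of 15 markers detected, Sox9, Rhox5, Gata4 and Fshr at 0) against 52.9 CPM in mouse 2 (12 of 15, Wt1, Gata4 and Fshr at 0), and their part in the result was not tested. The other members had log2 differences of -0.32 for Lyzl4, -0.06 for Lyzl6 and 0.09 for Spaca3, with adjusted p of 0.46, 0.909 and 0.75 in edgeR.

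On the log2 scale, the step from cluster 2 to cluster 3 held most of the rise. All 4 members were called higher, beside 31.8% of all rows called higher and 31.1% lower. The log2 fold change was 5.05 ± 0.204 (SE) for Lyzl4, 4.78 ± 0.170 for Lyzl1, 4.71 ± 0.168 for Lyzl6 and 4.44 ± 0.161 for Spaca3, with adjusted p from 7.28e-16 to 2.40e-15 in edgeR. The number of rows with a larger log2 fold change ranged from 216 for Lyzl4 to 523 for Spaca3. From cluster 3 to cluster 4 all members were higher again (25.9% of all rows higher, 20.2% lower), now by 1.42 ± 0.137 for Lyzl6, 1.38 ± 0.138 for Lyzl1, 1.25 ± 0.135 for Spaca3 and 1.10 ± 0.156 for Lyzl4 on the log2 scale. Adjusted p in edgeR ranged from 1.28e-08 to 3.04e-06. In CPM the step from cluster 2 to 3 did not hold most of the rise for every member. The means of the 2 mice in clusters 2, 3 and 4 were 10.7, 283 and 620 for Lyzl1. They were 10.6, 270 and 608 for Lyzl6, 17.4, 364 and 729 for Spaca3 and 5.50, 174 and 315 for Lyzl4.

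From cluster 4 to cluster 5 the members no longer moved alike, and the calls depended on the scaling. After TMM 2 of 4 members were called lower, Lyzl4 with -0.77 ± 0.161 (adjusted p 3.82e-04, edgeR) and Lyzl6 with -0.34 ± 0.137 (adjusted p 0.0484, edgeR), beside 21% of all rows called lower and 23.4% higher. The call of Lyzl6 was lost with DESeq2 (-0.31, adjusted p 0.0587) and with clusters built from all rows (-0.33, adjusted p 0.0568 in edgeR). Lyzl1 had -0.28 ± 0.137 (adjusted p 0.112, edgeR), and was called with the mouse as a block (-0.28, adjusted p 0.0256, edgeR) and with library totals (-0.79, adjusted p 3.85e-05, edgeR). Spaca3 had 0.08 ± 0.134 (adjusted p 0.652, edgeR), and turned to -0.43 (adjusted p 0.00578, edgeR) with library totals.

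From cluster 5 to cluster 6 all 4 members were called lower, beside 23.3% of all rows called lower and 16.5% higher. The sizes fell into a larger pair and a smaller pair. Lyzl6 fell by 3.09 ± 0.165 on the log2 scale and Spaca3 by 2.88 ± 0.154 (adjusted p 2.70e-12 in edgeR for both), and 704 and 814 of 14118 rows had a lower value. Lyzl1 fell by 1.48 ± 0.147 (adjusted p 3.29e-08, edgeR) and Lyzl4 by 0.91 ± 0.178 (adjusted p 2.39e-04, edgeR). The intervals of 1 SE around Lyzl6 and Spaca3 overlapped, those of the other pairs did not, and the differences between members were not tested. Cluster 6 was not separated from the few somatic cells, and the part of background in these sizes was not tested. The direction of each held under all 9 alternatives run for this step, and the call under those with a test. Fewer transcripts per cell and a larger share taken by other transcripts cannot be told apart from CPM alone. Per cell, Lyzl6 went from 8.30 ± 0.253 UMIs (SD, n = 2) in cluster 5 to 0.343 ± 0.0556 in cluster 6, and Lyzl4 from 3.19 ± 0.526 to 0.600 ± 0.126.

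The makeup of the members' UMIs, which no scaling between cells affects, changed at the same step. In cluster 5, Lyzl1 made up 26.4% and 26.1% of the UMIs of the 4 members in mouse 1 and mouse 2, Lyzl4 8.76% and 10.1%, Lyzl6 25.3% and 24.1% and Spaca3 39.5% and 39.7%. In cluster 6 the shares were 44.3% and 38.7% for Lyzl1, 20.8% and 23.4% for Lyzl4, 12.4% and 13.0% for Lyzl6 and 22.4% and 24.8% for Spaca3. Lyzl1 and Lyzl4 thus took a larger share of a smaller total, in both mice. The part of background in the makeup of cluster 6 was not tested. The log2 ratio of Lyzl4 to Lyzl6 rose by 2.28 in mouse 1 and 2.10 in mouse 2 between these clusters (mean 2.19 ± 0.125, SD), and that of Lyzl1 to Spaca3 by 1.56 and 1.25 (1.41 ± 0.221). Within the pairs the ratios moved less. Lyzl6 to Spaca3 changed by -0.21 in each mouse, and Lyzl1 to Lyzl4 by -0.50 and -0.64. The ratios are given as values of the 2 mice, without a test.

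**Figure D2:**
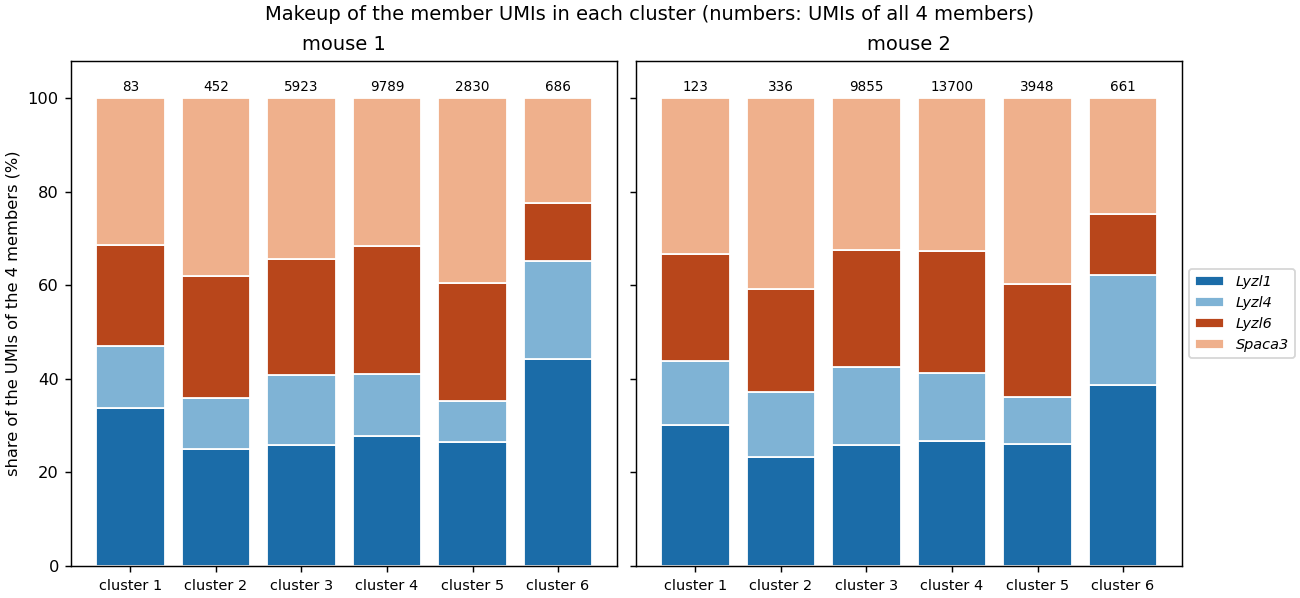
Share of each member (percent, vertical axis from 0) in the UMIs of the 4 members together, for clusters 1 to 6 (horizontal axis) and each mouse, with the number of UMIs above each bar. Lyzl1 and Lyzl4 grow between cluster 5 and cluster 6, from 26.4% to 44.3% and from 8.76% to 20.8% in mouse 1.

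From cluster 4 to cluster 5 the makeup shifted towards Spaca3. Its share of the members' UMIs was 31.6% and 32.6% in cluster 4, and the log2 ratio of Lyzl4 to Spaca3 changed by -0.92 and -0.81 between these clusters (-0.86 ± 0.080, SD, n = 2). The log2 ratio of Lyzl1 to Lyzl6 changed by 0.04 and 0.08. From cluster 3 to cluster 4 the 6 ratios between members changed by at most 0.30 on average.

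Along the pseudotime, in 20 bins of equal cell number, the members stayed low through bin 5 and rose from bin 6 or 7 on. Spaca3 had 14.5 and 17.7 CPM in bin 5 in mouse 1 and mouse 2, 54.7 and 43.6 CPM in bin 6 and 227 and 199 CPM in bin 7. Lyzl1 had 13.5 and 13.8 CPM in bin 5, 19.9 and 15.3 CPM in bin 6 and 112 and 117 CPM in bin 7. In both mice Lyzl1 and Lyzl4 were highest in bin 13, and Lyzl6 and Spaca3 in bin 14. The peaks were 687 and 682 CPM for Lyzl1, 326 and 351 CPM for Lyzl4, 679 and 641 CPM for Lyzl6 and 755 and 793 CPM for Spaca3. The neighbouring bins are close, so a difference of 1 bin is small: Lyzl1 in mouse 1 had 679 CPM in bin 14. In 10 bins all 4 members shared the same peak bin. Each member was at or above 50% of its peak from bin 9 or 10 to bin 15.

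After bin 15 the mice separated. Cluster 6 was already the largest cluster in bin 16, with 71.2% and 57.4% of cells in mouse 1 and mouse 2. The later bins thus do not place all of cluster 5 before cluster 6. Spaca3 had 197 CPM in bin 17 in mouse 1 and 358 CPM in mouse 2, and 83.6 and 275 CPM in bin 19. Lyzl1 had 105 and 207 CPM in bin 19, Lyzl4 33.7 and 92.5 CPM and Lyzl6 39.1 and 154 CPM. Mouse 2 was the higher one for all 4 members there. The share of all rows with such a difference was not computed. The cells of bin 19 were to 92.3% from cluster 6 in mouse 1 and to 74.2% in mouse 2, so the bins held different mixtures of clusters 5 and 6, and the part of this in the difference was not tested. Within cluster 6 as a whole, Lyzl4, Lyzl6 and Spaca3 were also higher in mouse 2 and Lyzl1 was not, at the levels given above.

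**Figure D3:**
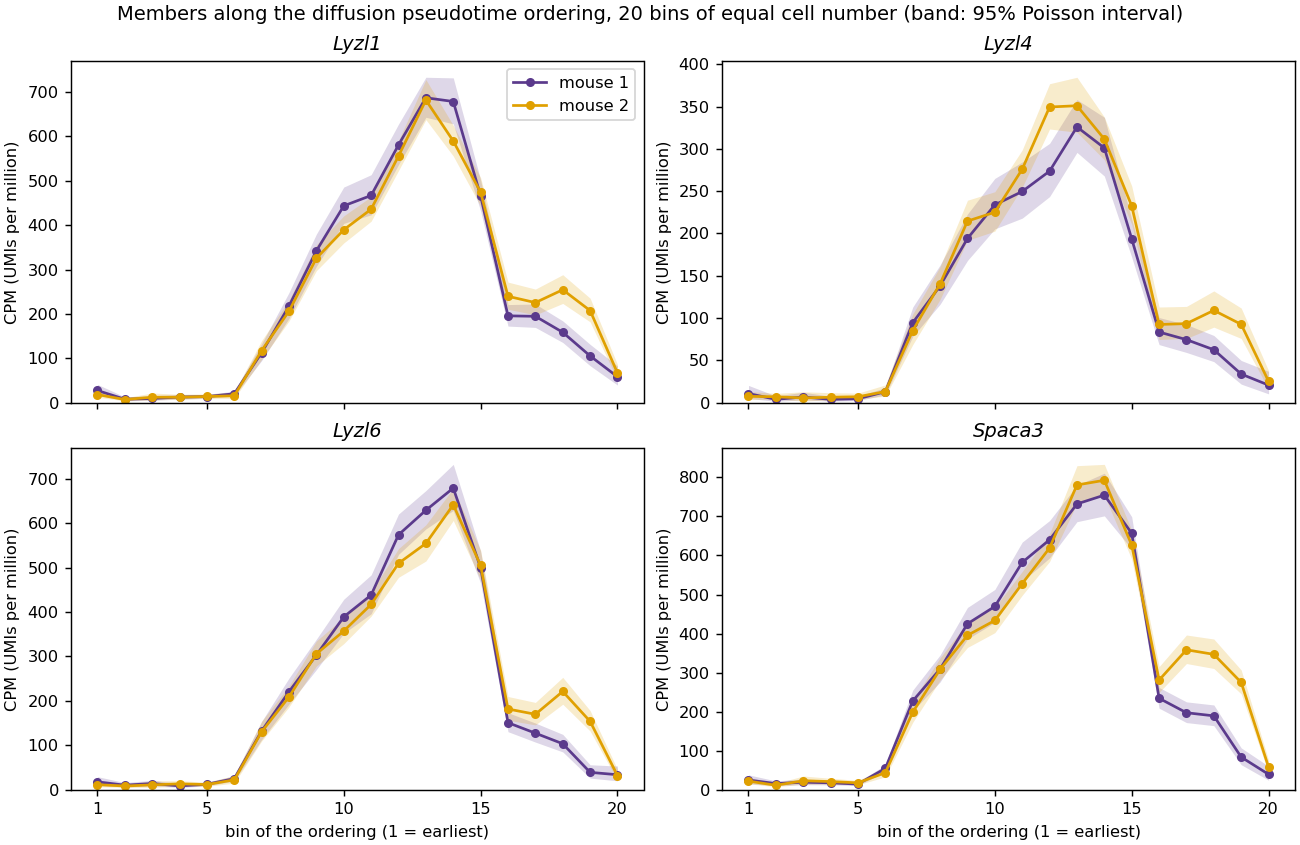
Level of each member in CPM (vertical axis, linear from 0) along 20 bins of the pseudotime (horizontal axis, 1 is earliest), with a line per mouse and 95% Poisson intervals as bands. All members are near 0 up to bin 5 and peak in bin 13 or 14, and mouse 2 lies above mouse 1 in bins 17 to 19.

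Many single cells held all members. All 4 were detected in 100% of the cells of cluster 4 in mouse 1 and 98.5% in mouse 2, in 72.3% and 85.5% of cluster 3, in 72.7% and 73.2% of cluster 5 and in 4.64% and 5.78% of cluster 6. In cluster 2 it was 1.63% and 0.457%. The product of the shares of the single members was 100% and 98.5% in cluster 4, 62.3% and 80.5% in cluster 3, 67.6% and 69.6% in cluster 5, 2.11% and 3.50% in cluster 6 and 0.429% and 0.642% in cluster 2. These shares follow depth and level, and no joint control is read from them. Within cluster 4, the median cell of mouse 1 had 6.20 UMIs of Lyzl1 per 10000 of its UMIs, with 10% of cells below 4.16 and 10% above 9.15. In cluster 3 the same values were 2.02, 0 and 5.50, a wider range relative to the middle value. In cluster 5, Lyzl6 ranged from 0 to 6.11 between these limits in mouse 1 and from 0 to 6.23 in mouse 2.

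The genes whose course was most like a member's were named by Pearson correlation of log2(CPM + 10) over 40 points, which are 20 bins in each of 2 mice and share cells, ordering and depth. Among 8016 genes, Sox5, a transcription factor gene, came first for Lyzl4 (0.995) and Lyzl6 (0.996) and in the fourth place for Lyzl1 (0.988). Lyzl4 was further like Kcne3, a potassium channel subunit gene, Lyzl6, Gm26844 and 1700061G19Rik. Lyzl6 was like Prkg1, a cGMP-dependent kinase gene, Spata45, 1700061G19Rik and Lyzl4. For Lyzl1 the closest were 1700113H08Rik (0.993), 1700109H08Rik and Tmem210, with Ankrd61 in the fifth place. For Spaca3 they were Spata45 (0.996), Fndc11, Spata46, Lyzl6 and Efcab9, the gene of a sensor of the sperm calcium channel CatSper. Values this close leave the order of names open to small changes, and by Spearman correlation 1, 0, 2 and 2 of the 5 names were kept for Lyzl1, Lyzl4, Lyzl6 and Spaca3. Between members the Pearson values ranged from 0.985 to 0.994. Among the 8016 genes, the other members took places 13 to 15 for Lyzl1, 3 to 29 for Lyzl4, 5 to 34 for Lyzl6 and 4 to 21 for Spaca3. Genes outside the 4 were thus as close or closer, and the values are not particular to the members.

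Other genes of the acrosome were split in direction. Of a list of 24, all were tested, and 17 were higher and 7 lower in spermatid-like clusters, beside 42.2% and 42% of all rows. The median log2 fold change was 2.64, against 4.91 for the members. The highest were Izumo1 (5.31 ± 0.158, SE), the sperm ligand of the egg receptor Juno, Hyal5 (5.23 ± 0.148), a sperm hyaluronidase, and Zp3r (5.19 ± 0.151), a protein of the acrosomal matrix. All 4 members lay below these 3 values. The lowest were Gopc (-3.53 ± 0.159), a Golgi protein needed for the acrosome to form, Spata16 (-0.82 ± 0.089) and Dpy19l2 (-0.73 ± 0.096), which are known from sperm without an acrosome. With library totals 13 were higher and 10 lower, and with UMIs per cell 12 and 11. Over all 14118 rows these settings called 4611 higher and 7735 lower, and 4031 higher and 8436 lower. At the step from cluster 5 to cluster 6, where all members were lower, 18 of the 24 were lower and 1 higher, beside 23.3% and 16.5% of all rows.

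**Figure D4:**
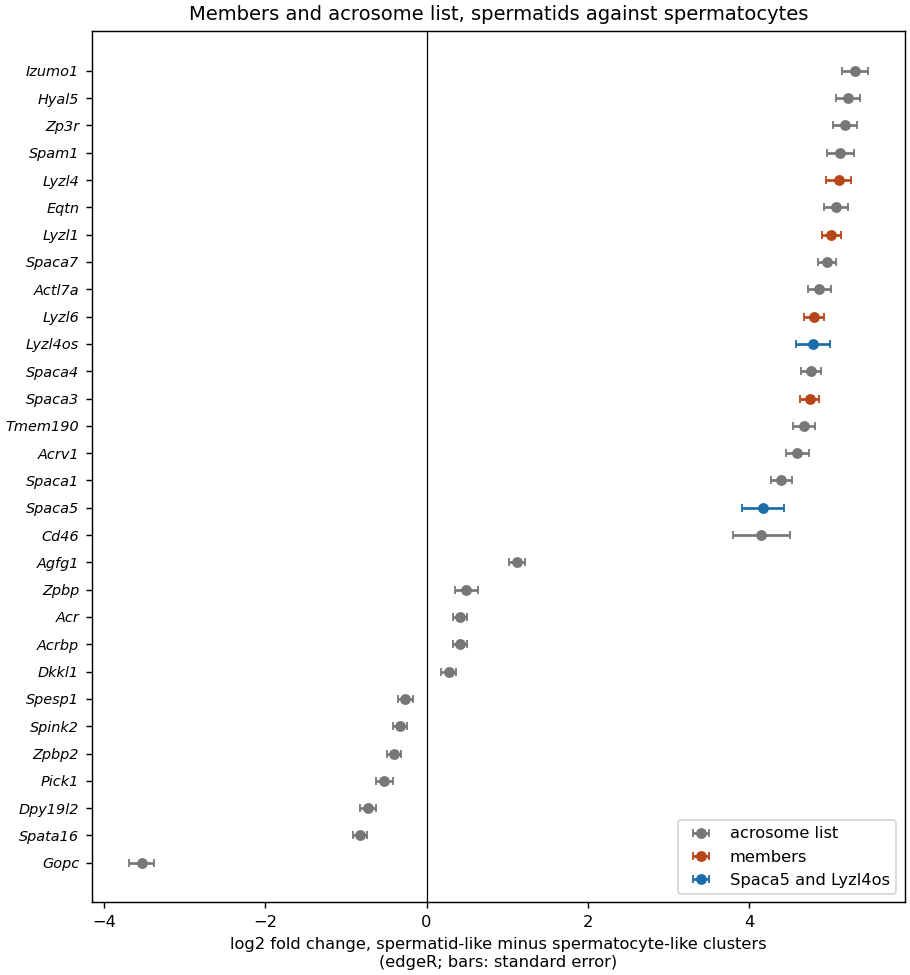
Log2 fold change of spermatid-like over spermatocyte-like clusters (horizontal axis) for the 4 members, Spaca5, Lyzl4os and the 24 genes of the acrosome list (vertical axis, sorted), with standard errors as bars. The members lie between 4.75 and 5.11 in the upper group, and 7 acrosome genes lie below 0.

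Of 4 further genes of the c-type lysozyme family, 1 passed the filter on low counts. This was Spaca5, another sperm acrosome gene, on the X chromosome. It had no UMI in cluster 1 in mouse 1, which allows up to 2.77 CPM (3 counts of the total), and 2.48 CPM there in mouse 2. It had 2.11 and 1.61 CPM in cluster 2, 28.9 and 27.1 CPM in cluster 3, 51.5 and 40.4 CPM in cluster 4, 34.1 and 36.6 CPM in cluster 5 and 3.12 and 2.93 CPM in cluster 6. Its course resembled that of the members at a lower count, with a log2 fold change of 4.17 ± 0.258 between spermatids and spermatocytes (adjusted p 5.91e-13, edgeR). From cluster 5 to 6 it fell by 2.94 ± 0.318 on the log2 scale. Lyz2, the lysozyme gene of macrophages, had 53 UMIs in all 2552 cells, Lyz1, that of Paneth cells of the gut, had 5, and Lalba, which encodes a milk protein of the family, had 1. These levels were too low to test.

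Lyzl4os, antisense to Lyzl4, had 1583 UMIs and followed Lyzl4. In cluster 4 it had 278 and 449 UMIs in the mice, or 21.5% and 22.6% of the UMIs of Lyzl4. In cluster 3 this share was 20.4% and 22.8%, and over all 6 clusters it ranged from 18.2% to 40.4%. Both ends rest on few UMIs, 2 against 11 of Lyzl4 in cluster 1 of mouse 1 and 19 against 47 in cluster 2 of mouse 2. The log2 fold change of Lyzl4os between spermatids and spermatocytes was 4.79 ± 0.210 (adjusted p 9.39e-16, edgeR). The paper treats reads antisense to exons as a mapping class of their own and reports little background in it. The strand of a read was therefore known. How the counting used it is not stated in the sources used here, and exchange of reads between Lyzl4 and Lyzl4os was not tested. The annotated 3' ends of the genes, near which reads are captured, lie apart at 121577843 for Lyzl4 and 121614255 for Lyzl4os. How many reads fall where the genes overlap was not tested. 4930507D10Rik next to Spaca3 had 1.06 and 0.805 CPM in cluster 2, 20.3 and 22.3 CPM in cluster 3 and 36.8 and 38.5 CPM in cluster 4. It had 18.7 and 23.3 CPM in cluster 5 and 21.5 and 20.8 CPM in cluster 6. In CPM it thus stayed near its level at the step where Spaca3 fell from 537 and 547 CPM to 43.6 and 53.4 CPM. Per cell it was lower, with 39 UMIs in 88 cells and 67 in 112 cells of cluster 5. In cluster 6 it had 76 UMIs in 280 cells and 64 in 225 cells. Its change at this step after TMM is not given here.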

How the data were processed

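Testis cells of 2 mice were measured in 1 droplet library each. The authors demultiplexed the reads with bcl2fastq 2.17.1.14 and counted them with Cell Ranger 2.0.0 on GRCm38 with masked repeats and the genes of Ensembl release 89, extended by RepBase 17.04 sequences as separate chromosomes. Both mice were combined with downsampling of reads to equal reads per cell. The deposited values are UMI counts, whole numbers that were not normalized further. The ending of each barcode gave its mouse, and no barcode was shared. All 2552 cells and 51868 rows were kept. Masking of repeats could lower counts of transcripts whose 3' end lies in a repeat.

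Tests ran in edgeR 4.0.16, with DESeq2 1.42.0 as an alternative (R 4.3.3). Clustering and summaries ran in scanpy 1.11.5 and scikit-learn 1.9.0 (Python 3.11.15, scipy 1.17.1, numpy 2.4.6, pandas 2.3.3), and figures in matplotlib 3.10.9. K-means (K = 9, 10 restarts, seed 42) was run on 10 principal components of 27757 rows, without the members, Lyzl4os, the family list and the acrosome list. A cluster took the class with the highest mean marker score where at least 3 markers reached 1.5 times the CPM of all cells. Diffusion pseudotime (30 neighbours) gave the order. Clusters with at least 20 cells in each mouse were summed per mouse and tested with edgeR's quasi-likelihood test after TMM and filterByExpr, with Benjamini-Hochberg adjustment over all rows and 0.05 as threshold. The test was also run on simulated counts with 200 changed genes and a fixed spread. This setting is simpler than these data, so it does not show how the test behaves on them. Doublets were called with scrublet. Sums of the same mouse come from 1 animal, so they are paired: their deviations correlated with r from 0.0245 to 0.23 over 15 pairs of clusters and 14118 genes. Intervals cover counting error only.

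The 4 members, the marker lists and the gene lists were chosen with earlier results of these data known. Named genes are the members, the family genes, the 3 highest and 3 lowest of the acrosome list and, for each member, the 5 genes most alike among those with at least 500 UMIs. Gene positions are those of GENCODE on GRCm38, and promoters those of RefSeq. Alternatives were other scalings, no filter, DESeq2, a block for the mouse, each mouse alone, no doublets, other clusterings (K = 10, the 2000 most variable genes, all rows), 10 bins, thinning and Spearman correlation.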

Additional observations from a re-analysis of the deposited data

How the results depend on the processing

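All 48 alternative values of the members between spermatids and spermatocytes, and all 36 of each of the steps from cluster 2 to 3, 3 to 4 and 5 to 6, kept their direction, and their call where a test was run. With 2 mice, each mouse alone gives values without a test. With the 2000 most variable genes, 1402 cells became 1 unnamed cluster that stayed out of the contrast. No cluster of that setting was named round spermatid or pachytene or later spermatocyte. Its values thus compared elongating or condensing spermatid-like clusters (467 and 287 cells) with 1 early spermatocyte-like cluster (377 cells), which is a narrower contrast.

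From cluster 1 to 2, Lyzl1 lost its call with UMIs per cell (-0.18), no filter (-0.37), the replicate block (-0.55) and without doublets (-0.21). Lyzl4 turned to 0.088 with UMIs per cell and 0.38 without doublets. Lyzl6 turned to 0.34 with UMIs per cell, 0.14 with no filter and 0.11 without doublets, and ranged from -0.18 to -0.052 with each mouse alone. Spaca3 turned to -0.19 with DESeq2 and -0.16 with library totals. Between the mice taken alone, Lyzl4 ranged from -0.73 to 0.013 and Spaca3 from -0.17 to 0.29, so their direction differed. From cluster 4 to 5, Lyzl1 gained a call with library totals (-0.79), UMIs per cell (-0.69), no filter (-0.79) and the replicate block (-0.28). Lyzl6 lost its call with DESeq2 (-0.31) and clusters from all rows (-0.33). Spaca3 turned to -0.43 with library totals, -0.33 with UMIs per cell and -0.43 with no filter. Each mouse alone gave -0.34 to -0.25 for Lyzl1, -0.86 to -0.74 for Lyzl4, -0.39 to -0.33 for Lyzl6 and 0.055 to 0.069 for Spaca3. The block for the mouse changed no other call of a member. Of the acrosome list, 11 in place of 7 were lower with UMIs per cell, where 8436 in place of 5933 of all rows were lower. By Spearman correlation 1, 0, 2 and 2 of the 5 most alike genes of Lyzl1, Lyzl4, Lyzl6 and Spaca3 were kept. Thinning moved all 24 shares of cells. Beyond the scaling built into the settings, the cause was not tested.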
